A study of Rattus norvegicus with 18 samples.

Results

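The transcripts described here are those of 6 rat genes that package the DNA of maturing sperm: the protamines *Prm1* (NM_001002850), *Prm2* (NM_012873) and *Prm3* (NM_001002855), the transition proteins *Tnp1* (NM_017056) and *Tnp2* (NM_017057), and the testis histone gene *H2bc1* (NM_022643). They were chosen by gene symbol, knowing that *H2bc1* and the protamines differed between the groups, so their differences between groups are a description and carry no test. All 6 were found, each as 1 of the 7016 RefSeq transcripts in the deposited RNA table. Testes of Wistar rats aged 8 weeks were sequenced as poly(A) RNA from 3 libraries of a chronic sleep restriction (CSR) group and 3 of a control group, and the labels give no further genotype or treatment for either. How sleep was restricted and how many animals stand behind the libraries are not given in the labels, so spread between libraries may be technical. Values are FPKM: fragments divided by the length of the transcript and by the total mapped in that library. Comparisons of levels between genes are thus corrected for length, but not for other differences in how well a transcript is captured. The read depth is unknown.

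Chromatin is rebuilt in spermatids, the haploid cells that become sperm. Testis variants of histones enter during meiosis, transition proteins then displace most histones in elongating spermatids, and protamines replace the transition proteins and condense the DNA. The mRNAs of transition proteins and protamines are made in round spermatids and stored before they are translated, so they are among the most abundant mRNAs of the adult testis. *Prm1* encodes the arginine-rich protamine found in all mammalian sperm, and *Prm2* encodes a precursor that is cut to the mature protein. *Prm3* lies in the same gene cluster, and its protein was found in the cytoplasm of mouse spermatids. *Tnp1* and *Tnp2* encode the main transition proteins, and *H2bc1* encodes the H2B variant TH2B, which replaces H2B in spermatocytes.

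In the RefSeq annotation of assembly GRCr8, *Prm1*, *Prm2*, *Prm3* and *Tnp2* are neighbours on chromosome 10, and only the lncRNA gene LOC120095020, whose span overlaps the start of *Tnp2*, lies among them. *Tnp1* is on chromosome 9. *H2bc1* is on chromosome 17 beside *H2ac1*, which encodes the H2A partner of TH2B and runs the other way. RefSeq promoter windows of 250 bases before the start were found for 5 of the 6 genes, all except *Prm2*. Windows are shown for the gene whose level varied most between libraries (*Prm1*), for the transition proteins it is compared with, and for *H2bc1*, the histone gene. They are written 5′ to 3′ on the strand of the gene, and capitals mark every match to the motifs named below the windows, searched on both strands, so that a match on the other strand appears as its complement read backwards.
Prm1: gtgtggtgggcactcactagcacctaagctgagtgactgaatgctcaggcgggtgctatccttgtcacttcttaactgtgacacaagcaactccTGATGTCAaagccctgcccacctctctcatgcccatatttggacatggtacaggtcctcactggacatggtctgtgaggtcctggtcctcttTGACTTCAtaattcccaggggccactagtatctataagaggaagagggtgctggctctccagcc
Tnp1: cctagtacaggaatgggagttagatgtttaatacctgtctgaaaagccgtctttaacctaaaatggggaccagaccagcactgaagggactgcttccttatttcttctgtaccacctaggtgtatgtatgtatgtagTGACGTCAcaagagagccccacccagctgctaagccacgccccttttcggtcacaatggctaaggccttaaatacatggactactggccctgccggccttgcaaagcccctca
Tnp2: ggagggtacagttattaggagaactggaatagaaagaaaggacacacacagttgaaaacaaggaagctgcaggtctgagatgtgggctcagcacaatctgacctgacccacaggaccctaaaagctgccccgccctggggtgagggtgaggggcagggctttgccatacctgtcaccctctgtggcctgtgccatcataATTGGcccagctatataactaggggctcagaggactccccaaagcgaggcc
H2bc1: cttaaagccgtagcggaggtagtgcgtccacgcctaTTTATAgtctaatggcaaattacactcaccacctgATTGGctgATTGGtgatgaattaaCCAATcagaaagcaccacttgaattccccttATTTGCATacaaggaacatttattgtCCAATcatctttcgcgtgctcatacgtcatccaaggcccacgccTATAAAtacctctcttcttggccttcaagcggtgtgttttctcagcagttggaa

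These windows lie at chr10:5378490-5378739 (plus strand), chr9:82044279-82044528 (minus strand), chr10:5386485-5386734 (plus strand) and chr17:41599662-41599911 (plus strand) of GRCr8. TGACGTCA is the full cAMP response element, the kind of site that the spermatid activator CREM binds, and TGANNTCA includes it. The *Tnp1* window held TGACGTCA at -113 to -106, and 1.59% of the 33469 windows in the table held this motif. The *Prm1* window held no full element but 2 matches to the looser TGANNTCA, TGATGTCA at -156 to -149 and TGACTTCA at -64 to -57. The *Prm3* window, not shown, held TGAGTTCA. The looser motif was in 13.2% of all windows. The *Tnp2* window matched only CCAAT, which 34.0% of all windows held. The *H2bc1* window held 4 CCAAT motifs, a TATA box motif, TATAAA, on each strand (12.9% of windows held it) and the octamer ATTTGCAT (1.56% of windows). It shares 239 of its 250 bases with the window of *H2ac1*, read from the other strand.

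Control library 3 stood apart from the other control libraries. On log2(FPKM + 1) over the 5657 tested transcripts, its Pearson correlation with the CSR libraries was 0.911 to 0.921, and with control libraries 1 and 2 it was 0.904 and 0.913. CSR libraries correlated with each other at 0.908 to 0.914, control libraries 1 and 2 with each other at 0.932, and these 2 with CSR libraries at 0.874 to 0.892. The submitters' codes of control libraries 1 and 2 differ in their last digit only. The labels do not say whether these are 2 animals, and the control SDs and standard errors treat them as separate. Fold changes of the 6 genes, medians of the gene lists and fold changes of the other histones are therefore also given without control library 3 and without control libraries 1 and 2. Values listed at 0 numbered 1000 to 1415 per CSR library and 275 to 423 per control library.

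The transition proteins were the most abundant of the 6. *Tnp1* read 3903, 7202 and 7415 FPKM in CSR libraries 1 to 3 and 4298, 4411 and 7730 FPKM in control libraries 1 to 3, and it was the most abundant transcript of the whole table in every library except CSR library 1. The groups overlapped fully: CSR library 1 stood with control libraries 1 and 2 at the lower level, and CSR libraries 2 and 3 with control library 3 at the higher one. The fitted log2 fold change of CSR over control was 0.17 with a standard error of 0.35. It was 0.45 without control library 3 and -0.38 without control libraries 1 and 2. *Tnp2* read 4111, 4329 and 3926 FPKM in CSR testes, against 2668, 3186 and 3816 FPKM in control. Every CSR value of *Tnp2* lay above every control value, by a narrow margin over control library 3, with a log2 fold change of 0.37 and a standard error of 0.17. It was 0.50 without control library 3 and 0.11 without control libraries 1 and 2. Testis is a mixed tissue, and in such bulk libraries fewer cells of a type and less RNA per cell cannot be told apart.

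*Prm1* split the libraries in another way. It read 3029, 2572 and 968 FPKM in CSR libraries 1 to 3 and 0.0934, 0.0981 and 877 FPKM in control libraries 1 to 3. Control libraries 1 and 2 thus held next to no *Prm1*, which ranked 6650th and 6705th of 7016 transcripts there, while it ranked 10th in control library 3 and between 4th and 10th in the CSR libraries. The groups did not overlap, but control library 3 lay close below CSR library 3. The fitted log2 fold change on FPKM + 1 was 7.59 with a standard error of 2.64. It was 10.81 (standard error 0.53) without control library 3 and 1.16 (standard error 0.80) without control libraries 1 and 2. A mean over the control group therefore describes none of its libraries: the control values span 9399.8-fold, the CSR values 3.13-fold.

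*Prm2* was low in the same libraries. It read 360, 316 and 145 FPKM in CSR testes, against 0.750, 0.407 and 328 FPKM in control. Control library 3 lay between CSR libraries 1 and 2, so the groups overlapped. The log2 fold change was 4.78 with a standard error of 2.11, rising to 7.35 without control library 3 and turning to -0.36 without control libraries 1 and 2. *Prm3*, the neighbour of *Prm2*, did not share this pattern in full: it read 117, 111 and 89.1 FPKM in CSR testes, against 73.5, 22.3 and 110 FPKM in control. Only control library 2 was low, and control library 1 lay nearer to the other libraries. The log2 fold change of *Prm3* was 0.87 with a standard error of 0.56, 1.34 without control library 3 and -0.07 without control libraries 1 and 2.

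**Figure D1:**
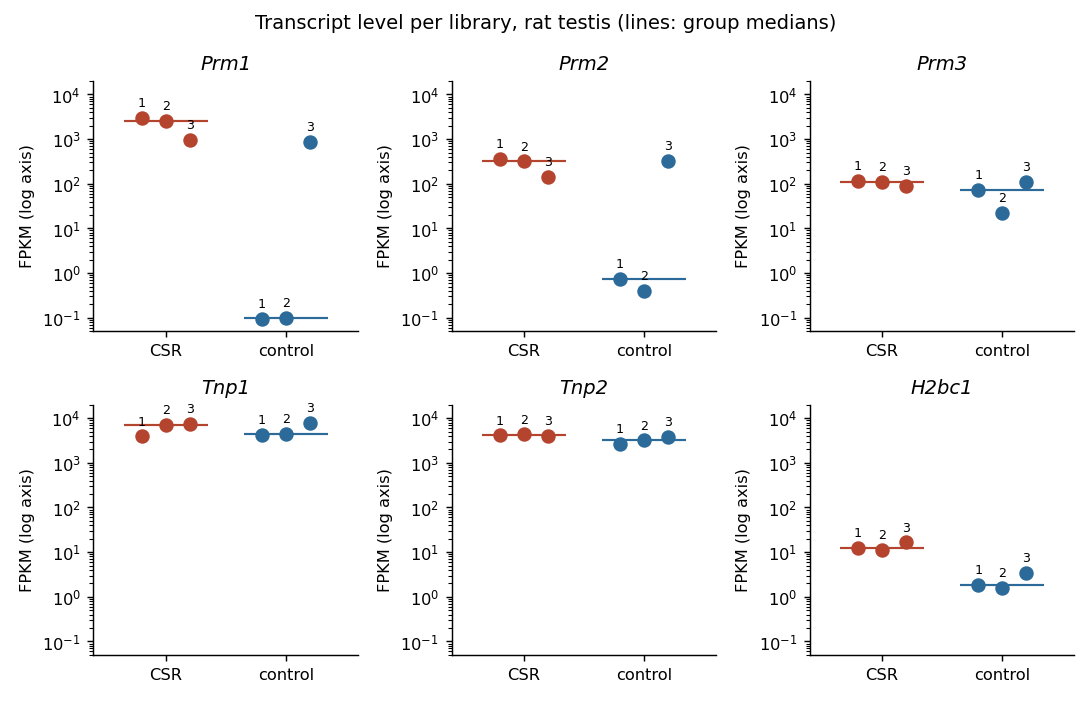
FPKM of the 6 transcripts on a log axis in each CSR and control testis library. Points carry the library number and lines are group medians. *Prm1* and *Prm2* are under 1 FPKM in control libraries 1 and 2 and between 145 and 3029 FPKM in the other libraries, while *Tnp1* and *Tnp2* are at 2668 FPKM or more in every library.

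*H2bc1* was the least abundant of the 6 in the poly(A) RNA of the CSR libraries. It read 12.4, 11.4 and 16.5 FPKM in CSR testes, against 1.83, 1.59 and 3.48 FPKM in control. The groups did not overlap, and the lowest CSR value was well above the highest control value, that of control library 3. The log2 fold change was 2.16 with a standard error of 0.26. It was 2.40 without control library 3 and 1.67 without control libraries 1 and 2.

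In the limma fit over all 5657 tested transcripts, 25 transcripts (0.442%) were called at an adjusted p under 0.05, of which 13 (0.230%) were higher and 12 (0.212%) lower in CSR. An unadjusted p under 0.05 was found for 748 of the 5657. Since the differences of the 6 genes helped to choose them, no call is given for any of them. All 6 passed the filter of at least 1 FPKM in 3 libraries, *Prm1* and *Prm2* through the CSR libraries and control library 3. Every CSR value exceeded every control value for 3 of the 6 (*Prm1*, *Tnp2*, *H2bc1*), as for 8.96% of all tested transcripts. Every CSR value lay below every control value for none of the 6 and for 12.6% of all tested transcripts. The genes were picked with these differences known. Over the alternative settings run, the log2 fold change of *H2bc1* ranged between 1.67 and 2.56, that of *Tnp2* between 0 and 0.50 and that of *Tnp1* between -0.38 and 0.47.

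**Figure D2:**
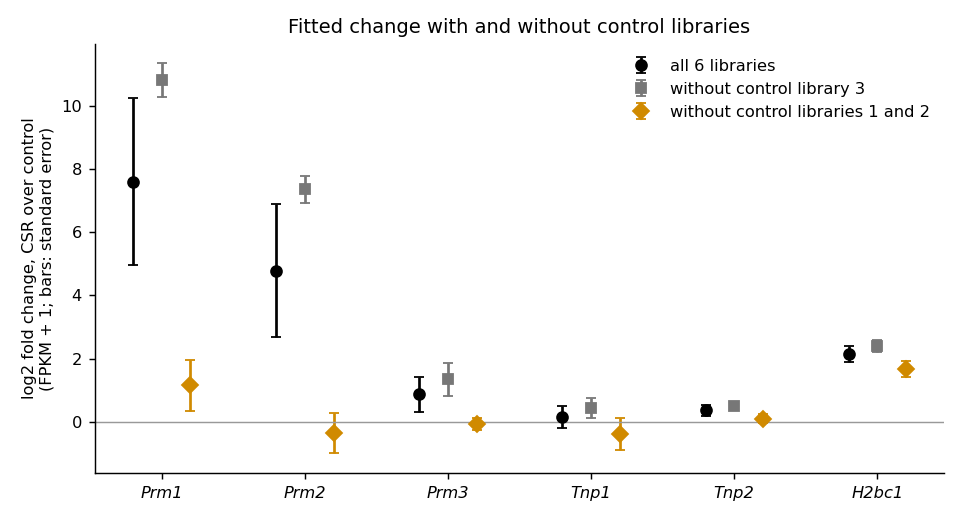
Fitted log2 fold change of CSR over control (FPKM + 1) for each transcript, with bars for the standard error, from all 6 libraries, without control library 3 and without control libraries 1 and 2. *Prm1* moves between 10.81 and 1.16 and *Prm2* between 7.35 and -0.36, while *H2bc1* keeps values from 2.40 to 1.67.

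Ratios of FPKM within a library do not depend on how the library was scaled, but ratios with 1 FPKM added can. *Prm1* stood at 0.776, 0.357 and 0.131 of the FPKM of *Tnp1* in CSR libraries 1 to 3, and at 2.17e-05, 2.22e-05 and 0.114 in control libraries 1 to 3. The ratio in CSR library 3 was thus close to that in control library 3, and CSR library 1 was the highest. *Prm2* stood at 0.0923, 0.0439 and 0.0196 of *Tnp1* in CSR and at 0.000175, 9.23e-05 and 0.0424 in control. Here control library 3 lay just below CSR library 2 and above CSR library 3. *Tnp2* over *Tnp1* was 1.05, 0.601 and 0.529 in CSR and 0.621, 0.722 and 0.494 in control, with full overlap.

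The ratio of *Prm1* to *Prm2* was 8.41, 8.14 and 6.66 in CSR libraries 1 to 3 and 0.124, 0.241 and 2.68 in control libraries 1 to 3. It varied little among CSR libraries although both genes were lowest in CSR library 3. The values of control libraries 1 and 2 are ratios of levels under 1 FPKM. In control library 3, where both protamines were abundant, *Prm1* exceeded *Prm2* by less than in any CSR library. On log2(FPKM + 1), the mean difference between groups in this ratio was 2.81, and 1.52 against control library 3 alone. *Prm3* over *Prm2* was 0.324, 0.352 and 0.613 in CSR and 98.0, 54.9 and 0.336 in control. *Prm3* thus exceeded *Prm2* in control libraries 1 and 2 and fell short of it in the other 4. *H2bc1* over *Tnp1* was 0.00317, 0.00158 and 0.00223 in CSR and 0.000426, 0.000360 and 0.000451 in control, with no overlap. With 1 FPKM added to both genes, the mean difference in the log2 ratio was 1.99. It was 1.95 without control library 3, 2.05 without control libraries 1 and 2, and 2.39 with 0.1 FPKM added instead.

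**Figure D3:**
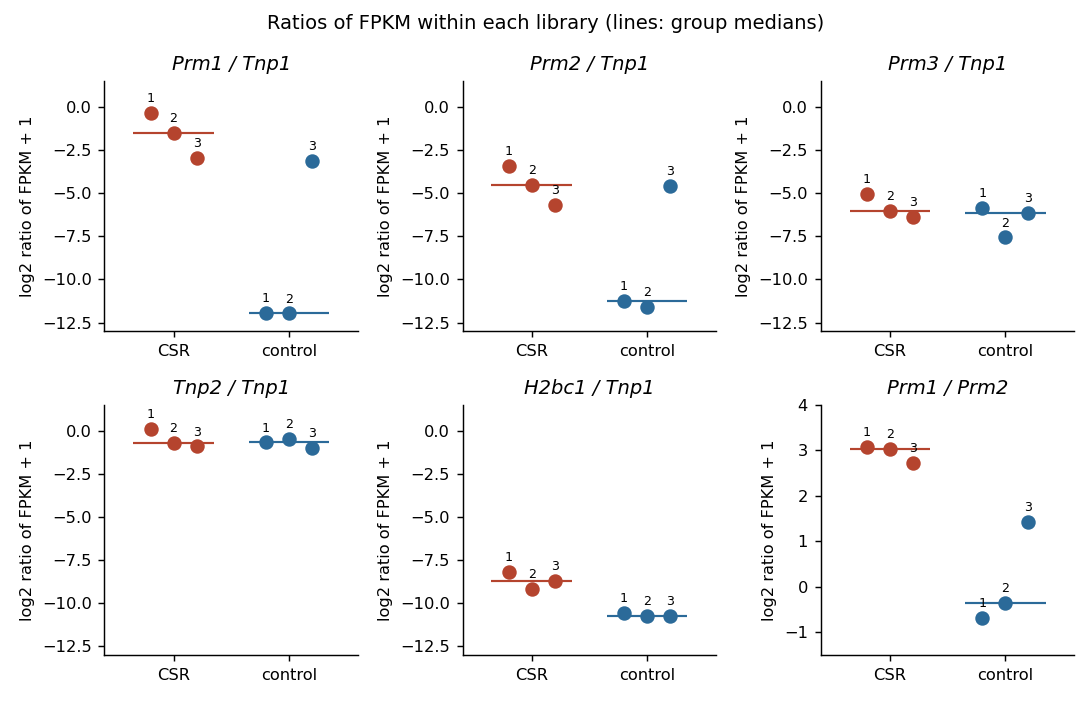
Log2 ratio of FPKM + 1 between transcripts of the same library, by group, with the library number at each point and group medians as lines. *Prm1* and *Prm2* over *Tnp1* drop only in control libraries 1 and 2, *Tnp2* over *Tnp1* overlaps between groups, and *H2bc1* over *Tnp1* and *Prm1* over *Prm2* are higher in every CSR library.

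The order of the levels followed the same split. In CSR the means were 6173 ± 1969 FPKM for *Tnp1*, 4122 ± 202 for *Tnp2*, 2190 ± 1083 for *Prm1*, 274 ± 113 for *Prm2*, 106 ± 14.5 for *Prm3* and 13.4 ± 2.74 for *H2bc1* (SD, n = 3). The CSR values of *Tnp1* and *Tnp2* overlapped, and all other neighbours in this order were separate in every CSR library. Control library 3 had the order of CSR libraries 2 and 3. In control libraries 1 and 2 the transition proteins were followed by *Prm3* and *H2bc1*, with *Prm2* and *Prm1* last. Together the 6 transcripts made up 7.87, 9.69 and 8.57% of the summed FPKM in CSR libraries 1 to 3 and 5.41, 5.63 and 8.82% in control libraries 1 to 3. *Tnp1* and *Tnp2* alone made up 5.47 to 7.74% in CSR and 5.35 to 7.91% in control.

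A transcript that is abundant in a library and nearly absent in another was rare in the table but not limited to protamines. Of 321 transcripts that reached 100 FPKM in at least 1 library, 8 were under 1 FPKM in another, among them *Prm1* and *Prm2* (limits set after the values were seen). The other 6 were *Eef1g*, *Tram1*, *St6galnac2*, *Hspa4l*, *Gstm5* and NM_147136, which the RefSeq table did not match to a gene. Besides *Prm1* and *Prm2*, NM_147136 was the only one under 1 FPKM in control libraries 1 and 2 and at 100 FPKM or more in the other 4. The remaining 5 were low in other sets of libraries. Within the control group the log2 values of *Prm1* spanned 9.65 and those of *Prm2* 7.87, against a median span of 0.33 over the 249 tested transcripts with a mean of at least 100 FPKM. Within CSR the spans were 1.64 and 1.30, against a median of 0.16. Why some transcripts fell to near 0 was not tested.

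**Figure D4:**
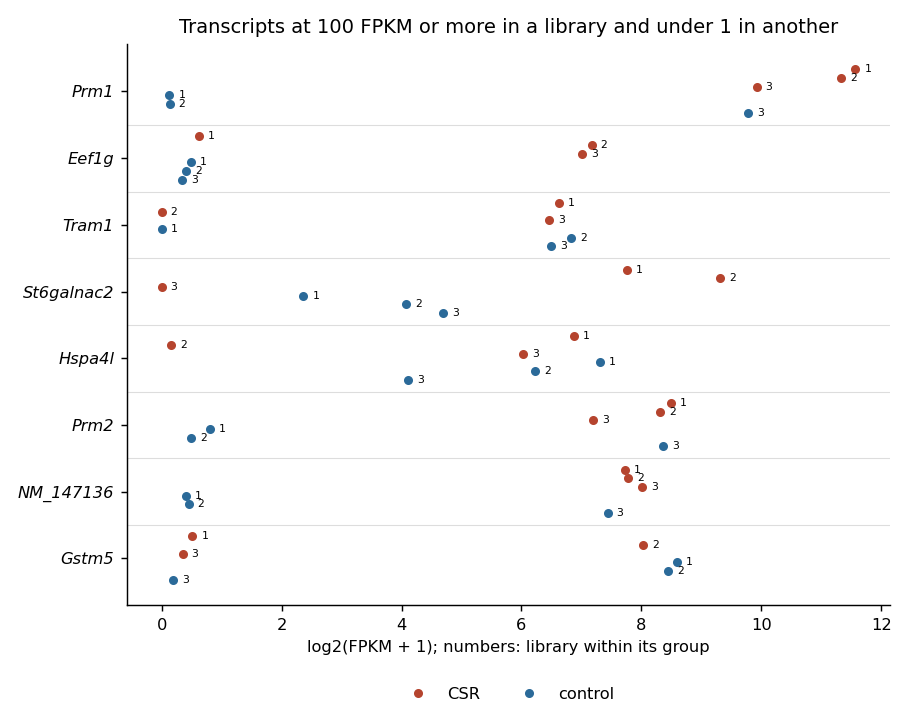
Log2(FPKM + 1) in each library for the 8 transcripts that reach 100 FPKM in a library and stay under 1 FPKM in another, CSR above control in each row, with the library number at each point. *Prm1*, *Prm2* and NM_147136 are near 0 in control libraries 1 and 2 and high in the other 4 libraries.

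For each of the 6, the tested transcripts of most similar profile were those with the smallest root mean square (RMS) difference between log2 values centred on their mean, over the 6 libraries. The nearest to *Prm1* and to *Prm2* was NM_147136, with 210, 218 and 256 FPKM in CSR testes, against 0.319, 0.368 and 172 FPKM in control. Its RMS difference was 1.65 from *Prm1* and 0.58 from *Prm2*. Next came *Tmem86b*, a lysoplasmalogenase gene, with 22.8, 34.5 and 26.1 FPKM in CSR testes, against 0.241, 0.283 and 22.3 FPKM in control, and *Izumo1*, which encodes the sperm protein needed for fusion with the egg. *Izumo1* read 26.8, 28.1 and 32.2 FPKM in CSR testes, against 1.06, 0.482 and 30.7 FPKM in control. All 3 were near or under 1 FPKM in control libraries 1 and 2 and high in control library 3. The RMS differences of *Tmem86b* were 2.94 from *Prm1* and 1.51 from *Prm2*, and those of *Izumo1* were 3.11 and 1.64. *Tmem86b* and *Izumo1* thus shared the split of libraries with the protamines but not its size.

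The profiles nearest to *Prm3* were *Dnajb12*, a co-chaperone gene (RMS difference 0.15), *Pa2g4* (0.18) and *Tmem255a* (0.20), each lowest in control library 2. *Dnajb12* read 11.3, 10.8 and 10.9 FPKM in CSR testes, against 8.32, 1.59 and 9.94 FPKM in control. Nearest to *Tnp1* were *Thg1l* (0.11), *Anapc13* (0.14), a subunit of the anaphase-promoting complex, and *Arid3a* (0.16). *Anapc13* read 7.62, 13.2 and 13.6 FPKM in CSR testes, against 8.84, 9.19 and 12.5 FPKM in control, the same split as *Tnp1*. *Tnp2* lay nearest to *C5h1orf94* (0.04), *Ccdc183* (0.05) and *Upf3b* (0.05), a nonsense-mediated decay factor. *H2bc1* lay nearest to *Foxk1* (0.22), a forkhead factor, *Plaat5* (0.24) and *Map2k7* (0.26), a kinase of the JNK pathway. *Tmem255a* (0 to 2.96 FPKM), *Thg1l* (0.959 to 3.35 FPKM) and *Map2k7* (0.181 to 5.25 FPKM) were low in every library. At such levels the added 1 FPKM shrinks log2 differences, so their likeness is less sure.

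*H2ac1*, the divergent neighbour of *H2bc1*, was present as well. It read 7.09, 8.15 and 13.2 FPKM in CSR testes, against 4.17, 3.26 and 7.26 FPKM in control, where CSR library 1 lay below control library 3. Its log2 fold change was 0.84 with a standard error of 0.32, and it did not pass the test (limma adjusted p = 0.368). It was 1.12 without control library 3 and 0.30 without control libraries 1 and 2. *H2bc1* exceeded *H2ac1* 1.74-, 1.40- and 1.25-fold in CSR libraries 1 to 3, whereas in control libraries 1 to 3 its level was 0.439, 0.487 and 0.480 of that of *H2ac1*. Histone genes have close family copies, and how reads that fit several copies were counted is not given, so these values are uncertain to that extent. The libraries were made from poly(A) RNA, so histone mRNA without a poly(A) tail is not covered by these values.

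Of 30 other histones listed, 11 were found, all were tested and none passed the limma threshold. An unadjusted p under 0.05 was found for 5 of the 11, against 748 of all 5657 tested transcripts. All 11 had a positive log2 fold change, and 10 of them with quantile normalization, median-of-ratios scaling or equal sums without the 6 transcripts. Without control libraries 1 and 2, 8 were positive. The median was 0.42, against -0.06 over all tested transcripts, of which 44.0% were positive. This median was 0.67 without control library 3, 0.26 without control library 1 and 0.14 without control libraries 1 and 2. The most abundant were *H3f3b*, a replacement histone made in all cells, at 119 ± 5.15 FPKM in CSR testes, against 119 ± 2.37 in control, and *H1f7*, a spermatid linker histone, at 70.3 ± 4.25 FPKM in CSR against 42.7 ± 10.2 in control (SD, n = 3 each). *H2ax*, the variant phosphorylated at DNA breaks, had 44.6 ± 5.73 FPKM in CSR testes, against 31.3 ± 7.60 in control. *H2az1* had 26.9, 14.0 and 1.21 FPKM in CSR testes, against 1.01, 15.2 and 11.003 in control, and varied within both groups by more than the groups differed. Every CSR value lay above every control value for 3 of the 11 (*H1f7*, *H3f4* and *H1f6*), against 8.96% of all tested transcripts. *H3f4* and *H1f6* were chosen after their values were seen. *H3f4* had 11.1 ± 0.847 FPKM in CSR testes, against 6.64 ± 1.34 in control. *H1f6*, the testis linker histone, had 5.99 ± 1.77 FPKM in CSR against 3.54 ± 0.466 in control. *H3f4* was called without control library 3 (adjusted p = 0.0354), the only listed gene called in any setting run. Without control libraries 1 and 2, the log2 fold changes were 0.54 for *H1f7*, 0.14 for *H2ax*, -0.30 for *H2az1*, 0.40 for *H3f4* and 0.47 for *H1f6*. Without control library 3 they were 0.83 for *H1f7*, 0.70 for *H2ax*, 0.77 for *H2az1*, 0.82 for *H3f4* and 0.67 for *H1f6*.

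**Figure D5:**
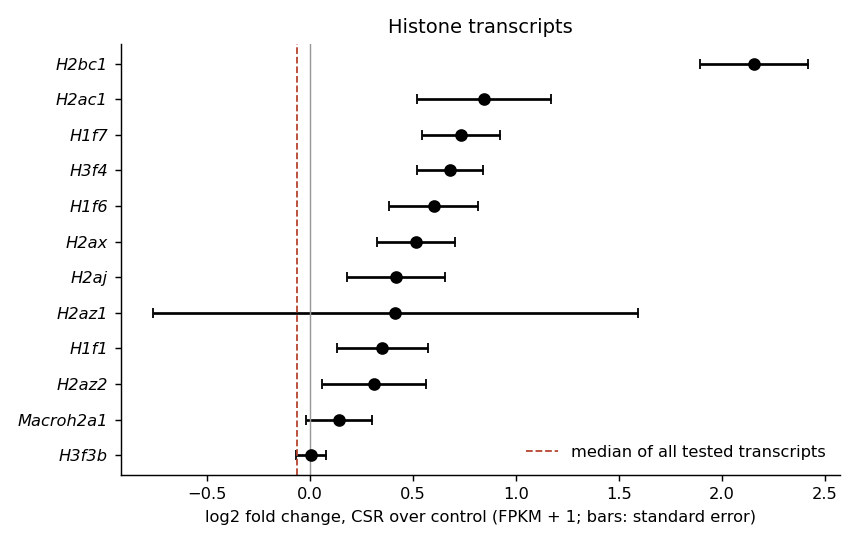
Log2 fold change of CSR over control (FPKM + 1) with standard errors for *H2bc1* and the 11 other histone transcripts found, and the median of all tested transcripts as a dashed line. *H2bc1* is at 2.16, the others lie between 0.84 (*H2ac1*) and 0.00 (*H3f3b*).

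Of 29 listed genes of the exchange of histones for protamines, 19 were found as 20 transcripts, and none passed the limma threshold. An unadjusted p under 0.05 was found for 3 of the 20, against 748 of all 5657 tested transcripts. The fold change was positive for 11 and negative for 9, with a median log2 fold change of 0.06. The sign of this median was not stable: it was -0.046 without control library 1, -0.026 without CSR library 3, -0.010 without control library 3 and -0.030 without control libraries 1 and 2, and -0.012 with equal sums without the 6 transcripts. The most abundant was *Hmgb4*, a spermatid high mobility group gene, at 562 ± 53.5 FPKM in CSR testes, against 446 ± 108 in control. *Ppp1cc*, the phosphatase whose testis form is needed for sperm formation, had 216 ± 11.2 FPKM in CSR testes, against 257 ± 19.4 in control for its main transcript (NM_001270983). *Kat8*, an acetyltransferase of histone H4, had 100.4 ± 2.76 FPKM in CSR against 97.2 ± 2.89 in control, and *Hspa2*, a chaperone of transition proteins in mouse, had 89.1 ± 6.86 FPKM in CSR against 77.3 ± 4.31 in control.

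Regulators of these genes did not pass either. Of 15 listed for transcription in spermatids, 8 were found, 9 of their transcripts were tested, none passed and none had an unadjusted p under 0.05; the median was -0.21, with -0.18 without control library 3 and -0.27 without control libraries 1 and 2. *Fhl5*, the coactivator of CREM, had 126 ± 7.56 FPKM in CSR testes, against 123 ± 7.04 in control, and *Gtf2a1l*, a germ cell form of a basal transcription factor, had 81.7 ± 3.45 FPKM in CSR against 87.3 ± 3.71 in control. *Tbpl1* had 9.92 ± 2.49 FPKM in CSR against 12.5 ± 2.79 in control, and *Rfx2*, a factor of spermatid genes, had 10.03 ± 1.71 FPKM in CSR against 11.2 ± 3.88 in control. Of 24 listed for storage and translation of protamine mRNA, 15 were found, 12 tested and none passed, with 1 unadjusted p under 0.05 and a median of 0.14. That median was -0.0066 without control library 3, 0.059 without CSR library 1, 0.085 without control library 2 and 0.053 without control libraries 1 and 2. *Ybx2*, the germ cell Y-box protein that holds stored mRNAs, had 541 ± 148 FPKM in CSR testes, against 401 ± 59.1 in control. Its relatives were *Ybx3* (251 ± 14.1 FPKM in CSR against 248 ± 9.26 in control) and *Ybx1* (142 ± 4.83 FPKM in CSR against 126 ± 13.03 in control). *Pabpc1*, a poly(A) binding protein gene, read 30.7, 687 and 835 FPKM in CSR testes, against 808, 631 and 863 in control, with CSR library 1 alone low.

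Of 30 other mRNAs of late spermatids listed, 22 were found as 23 transcripts, 22 were tested and none passed. An unadjusted p under 0.05 was found for 3 of the 22, against 748 of all 5657 tested transcripts. Of the 22, 14 were positive and 8 negative with a median of 0.17. This median was 0.04 with quantile normalization and -0.03 without control libraries 1 and 2. The median was 0.27 without control library 3 and 0.073 without control library 1. *Oaz3*, the antizyme of spermatids, read 4528, 4287 and 4210 FPKM in CSR testes, against 2148, 2894 and 4374 FPKM in control. *Smcp*, of the sperm mitochondrial capsule, read 2474, 2919 and 3873 FPKM in CSR testes, against 2199, 2153 and 3340.5 FPKM in control. *Gsg1* had 1230.0 ± 50.1 FPKM in CSR testes, against 1242 ± 41.1 in control, and *Odf2* (NM_017213), of the outer dense fibres, had 648 ± 77.5 FPKM in CSR against 507 ± 67.4 in control. *Oaz3* and *Smcp* were lower in control libraries 1 and 2 than in every other library, yet at 2148 FPKM or more there. Around the protamine cluster, 3 of 9 listed neighbours were found and 2 tested, and none passed or had an unadjusted p under 0.05. They stood at or under 2 FPKM in every library: *Dexi* had 1.57 ± 0.102 FPKM in CSR testes, against 1.39 ± 0.528 in control, *Txndc11* 0.774 ± 0.692 in CSR and 0.952 ± 0.703 in control, and *Litaf* 0.788 ± 0.966 in CSR and 0.355 ± 0.308 in control.

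Listed cell type markers were set against the tissue label. The summed round spermatid, spermatocyte and Leydig markers each stood at 66 FPKM or more in all libraries, which goes with the label of testis. Of the elongating spermatid markers, *Prm1* and *Prm2* were under 1 FPKM in control libraries 1 and 2. The listed markers of epididymis (4) and endothelium (4) were not matched to any transcript of the RNA table. These tissues could therefore not be checked. The summed level of the 5 Sertoli markers found of 10 was 56.5 to 58.9 FPKM in CSR and 64.2 to 71.2 FPKM in control. That of the 2 macrophage markers found of 5 was 3.98 to 5.23 FPKM in CSR and 7.14 to 7.80 FPKM in control. Neither sum overlapped between groups. Among single tested transcripts, 12.6% also had every CSR value below every control value. Sums overlapped for 4 of 7 Leydig markers found (68.2 to 117 FPKM in CSR, 66.4 to 88.6 in control) and 4 of 5 peritubular myoid markers (17.5 to 21.7 in CSR, 15.6 to 20.9 in control). They also overlapped for 1 of 6 spermatogonial markers (23.2 to 33.8 in CSR, 24.7 to 31.2 in control) and 3 of 8 spermatocyte markers (197 to 246 in CSR, 134 to 219 in control). The 6 of 7 round spermatid markers found summed to 291 to 400.5 FPKM in CSR and 240.1 to 307 FPKM in control. The 6 of 8 elongating spermatid markers found were *Prm1*, *Prm2*, *Tnp1*, *Tnp2*, *Oaz3* and *Smcp*, all described above. Their sum, which is therefore no separate check, was 18406 to 21625 FPKM in CSR and 11313 to 20466 FPKM in control. The 2 of 4 blood markers found summed to 3.02 to 25.5 FPKM in CSR and 5.32 to 28.9 FPKM in control, and 1 of them was at 0 in every control library. The part of the Sertoli and macrophage differences in the values of *H2bc1*, *Tnp2* and *Prm1* was not tested.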

How the data were processed

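The authors deposited FPKM values of 7016 RefSeq transcripts for 3 CSR and 3 control testis libraries, made from poly(A) RNA per the labels' protocols. The submitters' processing notes name Trimmomatic, HISAT2, StringTie and the rn6 build. For versions, settings, strand use and transcript selection nothing is given in the sources used here. Columns were matched to samples by the codes in the labels. Accessions were matched to symbols in the RefSeq table of assembly GRCr8 (6911 matched, 105 not). The log2(FPKM + 1) values of 5657 transcripts, those reaching 1 FPKM in 3 or more libraries, were fitted with limma (3.58.1, under R 4.3.3) using its trend option, with Benjamini-Hochberg adjustment over all of them and a threshold of 0.05. The fold changes understate those of low transcripts. In data simulated with known changes, the fit missed part of them, so genes that did not pass may still have changed. The genes and lists were chosen with earlier results of these data known. Beside the 6 genes, the text names the 3 nearest profiles of each, called list members and the up to 4 most abundant per list, and all locus neighbours found. *H1f6*, *H3f4* and the transcripts that were abundant in a library and under 1 FPKM in another were chosen after their values were seen. Alternatives covered the pseudocount, filter, scaling, test, replicate block and libraries left out. The 12 methylation libraries, placed on rn6, were not analysed here because no rn6 annotation was used. FPKM files give no read depth, so no counting error is given.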

Additional observations from a re-analysis of the deposited data

How the results depend on the processing

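The count of 25 called transcripts was 11 with a pseudocount of 0.1, 10 with at least 1 FPKM in all 6 libraries (fewer transcripts tested), 77 without the mean-variance trend, 7 with control libraries 1 and 2 averaged as 1 library and 16 without both (a setting chosen after seeing the data, where control library 3 is assumed to vary like the CSR libraries). Leaving out single libraries gave 4 to 259 calls: the extremes came on leaving out control library 3 (259) and control library 2 (4), and dropping control library 1 gave 8, CSR library 3 gave 7 and CSR library 2 gave 14. Same-numbered libraries of the groups deviated with correlations of 0.03, 0.01 and 0.04, which show no pairing by number but cannot exclude one. The replicate block left 0 calls by limma, with 715 unadjusted p under 0.05. Listed genes called ranged from 0 to 1 over the libraries left out. Without control libraries 1 and 2, log2 fold changes were 1.16 for *Prm1*, -0.36 for *Prm2*, -0.069 for *Prm3*, -0.38 for *Tnp1*, 0.11 for *Tnp2* and 1.67 for *H2bc1*, and the differences in log2 ratio were 1.54 for *Prm1* over *Tnp1*, 0.022 for *Prm2* over *Tnp1* and 1.52 for *Prm1* over *Prm2*. A pseudocount of 0.1 gave 2.56 for *H2bc1*, 2.39 for *H2bc1* over *Tnp1* and 3.63 for *Prm1* over *Prm2*. Quantile normalization, which sets equal ranks to equal values, gave 0 for *Tnp2* and -0.25 for *Tnp1*. At least 1 FPKM in all libraries removed *Prm1* and *Prm2*. Unless stated, the cause was not tested. Unknown read depth limits what the values near 0 can show.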

Other observations

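Besides the protamines and NM_147136, 5 abundant transcripts were under 1 FPKM in at least 1 library. *Eef1g*, a translation elongation factor subunit, read 0.543, 143 and 128 FPKM in CSR libraries 1 to 3 and 0.407, 0.333 and 0.266 FPKM in control libraries 1 to 3. *Tram1*, of the endoplasmic reticulum translocon, read 97.7, 0 and 86.7 FPKM in CSR and 0, 112 and 88.9 FPKM in control. *Gstm5*, a glutathione transferase, read 0.427, 261 and 0.274 FPKM in CSR and 386, 349 and 0.141 FPKM in control. *Hspa4l*, a chaperone of male germ cells, read 116, 0.115 and 64.2 FPKM in CSR and 157, 73.8 and 16.3 FPKM in control, and *St6galnac2*, a sialyltransferase, read 215, 631 and 0 FPKM in CSR and 4.15, 15.9 and 24.9 FPKM in control. These 5 were picked out after their values were seen.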
